A study of Mus musculus with 12 samples.

Results

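The genes described here are the named small nucleolar RNAs (snoRNAs) and small Cajal body RNAs (scaRNAs) of mouse T-lineage acute lymphoblastic leukemia (T-ALL, a leukemia of T-cell precursors). They were taken by name, as every gene whose symbol starts with Snora, Snord or Scarna followed by a digit, with Snora17 and Snora43 left out. This gave 124 of the 38339 genes in the table, made up of 36 Snora, 79 Snord and 9 Scarna genes. Levels are in FPKM, sequenced fragments scaled to the length of the gene model and to the mapped fragments of the library. A level of at least 1 FPKM in at least 6 of 12 libraries was needed for a test, and 16 of the 124 members reached it: 9 Snora, 3 Snord and 4 Scarna.

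Primary leukemias had been transplanted into mice, and moribund recipients received vehicle (VEH) or dexamethasone (DEX, a synthetic glucocorticoid) 4 hours before they were killed. Total RNA came from bone marrow after red cell lysis, and a stranded total RNA kit was used for paired reads of 100 bases. Each of 6 leukemias, numbered 1 to 6, gave 1 VEH and 1 DEX library from different recipients, so the replicate is the leukemia. Both groups had the background C57BL/6 x 129Sv/Jae F1, the labels name no other allele or agent, and every sample is a marrow that can also hold cells of the recipient. The comparison asks which RNAs differed between drug and vehicle within a leukemia.

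SnoRNAs are short non-coding RNAs that act in the nucleolus as guides for chemical marks on ribosomal RNA (rRNA). C/D box snoRNAs carry a C box near the start and a D box near the end and guide 2′-O-methylation by fibrillarin (Fbl). H/ACA box snoRNAs end shortly after the bases ACA and guide pseudouridylation by dyskerin (Dkc1). A few of either kind take part in cleavage of the rRNA precursor instead, and scaRNAs guide the marks on the small nuclear RNAs of the spliceosome in Cajal bodies. Most mammalian snoRNAs are cut from introns of host genes and are protected from decay by their bound core proteins.

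The sequences of 9 members are shown because the results turn on them: C/D box members whose level differed most or least between libraries, the H/ACA box members that passed the test, the most abundant pair, and the shortest member with a level above 0. They were read from the GENCODE release 21 mouse transcripts on GRCm38 (the assembly also called mm10), 5′ to 3′. In the C/D box members, capitals mark a C box (ATGATGA or GTGATGA within the first 25 bases) and a D box (CTGA within the last 15 bases). Snord22 has the D box but not these letters of the C box in that window. Snord15a lies at chr7:99482785-99482932 and Snord15b at chr7:99479563-99479707, both on the minus strand, within Rps3. Snord17 lies at chr2:144265979-144266216 on the minus strand, in an intron of Snx5, and Snord22 at chr19:8725866-8725991 on the plus strand.
Snord15a: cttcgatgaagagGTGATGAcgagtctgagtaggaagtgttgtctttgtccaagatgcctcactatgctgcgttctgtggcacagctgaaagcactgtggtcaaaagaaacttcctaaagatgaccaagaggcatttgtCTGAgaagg
Snord15b: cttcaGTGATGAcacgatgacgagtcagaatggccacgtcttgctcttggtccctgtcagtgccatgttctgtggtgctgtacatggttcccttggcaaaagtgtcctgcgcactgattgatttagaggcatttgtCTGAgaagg
Snord17: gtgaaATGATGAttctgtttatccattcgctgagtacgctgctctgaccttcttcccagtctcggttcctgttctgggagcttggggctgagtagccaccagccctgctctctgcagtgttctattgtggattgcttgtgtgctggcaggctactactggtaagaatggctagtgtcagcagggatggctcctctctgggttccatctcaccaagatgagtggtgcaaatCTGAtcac
Snord22: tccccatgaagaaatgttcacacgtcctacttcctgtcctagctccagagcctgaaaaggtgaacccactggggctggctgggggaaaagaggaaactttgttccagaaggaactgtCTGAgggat

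In the next 3 sequences, of H/ACA box members, capitals mark ACA followed by exactly 3 bases at the end. Snora81 (chr16:23110756-23110933, plus strand, overlapping an exon of Eif4a2) does not have these letters in that place. Snora23 lies at chr7:110046364-110046547 on the plus strand, in an intron of Ipo7, and Snora26 at chr5:74093530-74093650 on the plus strand.
Snora81: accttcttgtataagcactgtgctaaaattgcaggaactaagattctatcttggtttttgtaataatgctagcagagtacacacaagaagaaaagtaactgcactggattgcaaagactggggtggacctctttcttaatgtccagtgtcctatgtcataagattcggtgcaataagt
Snora23: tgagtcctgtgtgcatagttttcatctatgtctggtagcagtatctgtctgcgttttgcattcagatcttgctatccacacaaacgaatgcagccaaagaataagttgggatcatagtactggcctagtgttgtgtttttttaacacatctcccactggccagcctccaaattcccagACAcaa
Snora26: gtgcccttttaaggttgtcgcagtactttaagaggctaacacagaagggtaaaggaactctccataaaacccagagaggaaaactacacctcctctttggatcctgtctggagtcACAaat

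Snora73a (chr4:132352775-132352979) and Snora73b (chr4:132352322-132352526) lie on the minus strand within Snhg3 and are near copies. Capitals mark the bases at which they differ, 7 of 205, an identity of 96.6%. How the authors shared out reads that fit both is not given in the sources used here, so the split of their signal is uncertain.
Snora73a: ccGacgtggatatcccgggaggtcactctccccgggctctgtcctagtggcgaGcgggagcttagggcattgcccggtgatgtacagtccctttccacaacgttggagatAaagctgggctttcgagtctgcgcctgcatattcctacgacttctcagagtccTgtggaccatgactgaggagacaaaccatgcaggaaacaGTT
Snora73b: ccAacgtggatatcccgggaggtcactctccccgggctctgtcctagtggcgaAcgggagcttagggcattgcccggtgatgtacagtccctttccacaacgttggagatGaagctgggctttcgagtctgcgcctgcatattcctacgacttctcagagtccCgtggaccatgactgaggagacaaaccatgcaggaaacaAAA

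Most members of the 2 box classes, but not all, carried the letters of their class. Searched on the RNA strand only, the D box was present in 73 of 79 Snord (92.4%), the C box in 51 of 79 (64.6%), and both in 49. None of the 36 Snora held either in these windows. The ACA ending was present in 31 of 36 Snora (86.1%) and in 0 of 79 Snord. Over all 124 members these shares were 62.9% for the D box, 44.4% for the C box and 26.6% for the ACA ending. The classes also differed in length, with a median of 80 nt for Snord, 132 nt for Snora and 140 nt for Scarna, and a range of 64 to 414 nt over all members.

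Length went with whether a member had any level at all. Of the 124 members, 81 were listed at 0 in all 12 libraries, namely 74 of 79 Snord, 5 of 36 Snora and 2 of 9 Scarna. None of the 76 members under 121 nt was above 0 in any library, and all 10 members of at least 150 nt were above 0 in every library. The longest member listed at 0 everywhere had 133 nt. A 0 in this table can be a failed estimate rather than a measured absence, and the depth behind each value is unknown because no counts were used here. The 74 Snord at 0 are therefore described only as listed at 0.

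The DEX libraries of leukemias 2, 5 and 6 stood apart from the other 9 libraries. In those 9, between 13 and 18 members were above 0 and the shortest had 136 or 137 nt. In the 3 DEX libraries, 38, 38 and 42 members were above 0, and the shortest had 121, 126 and 121 nt. The labels mark the same 3 libraries: the descriptions of the 9 end in the letter S and a number, and those of these 3 do not, and the labels do not say what this marks. All 3 are DEX libraries, so in leukemias 2, 5 and 6 the treatment and whatever set these libraries apart cannot be told apart. In leukemias 1, 3 and 4 both libraries of each pair are among the 9, and the differences of members between DEX and VEH are given below with and without leukemias 2, 5 and 6.

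**Figure D1:**
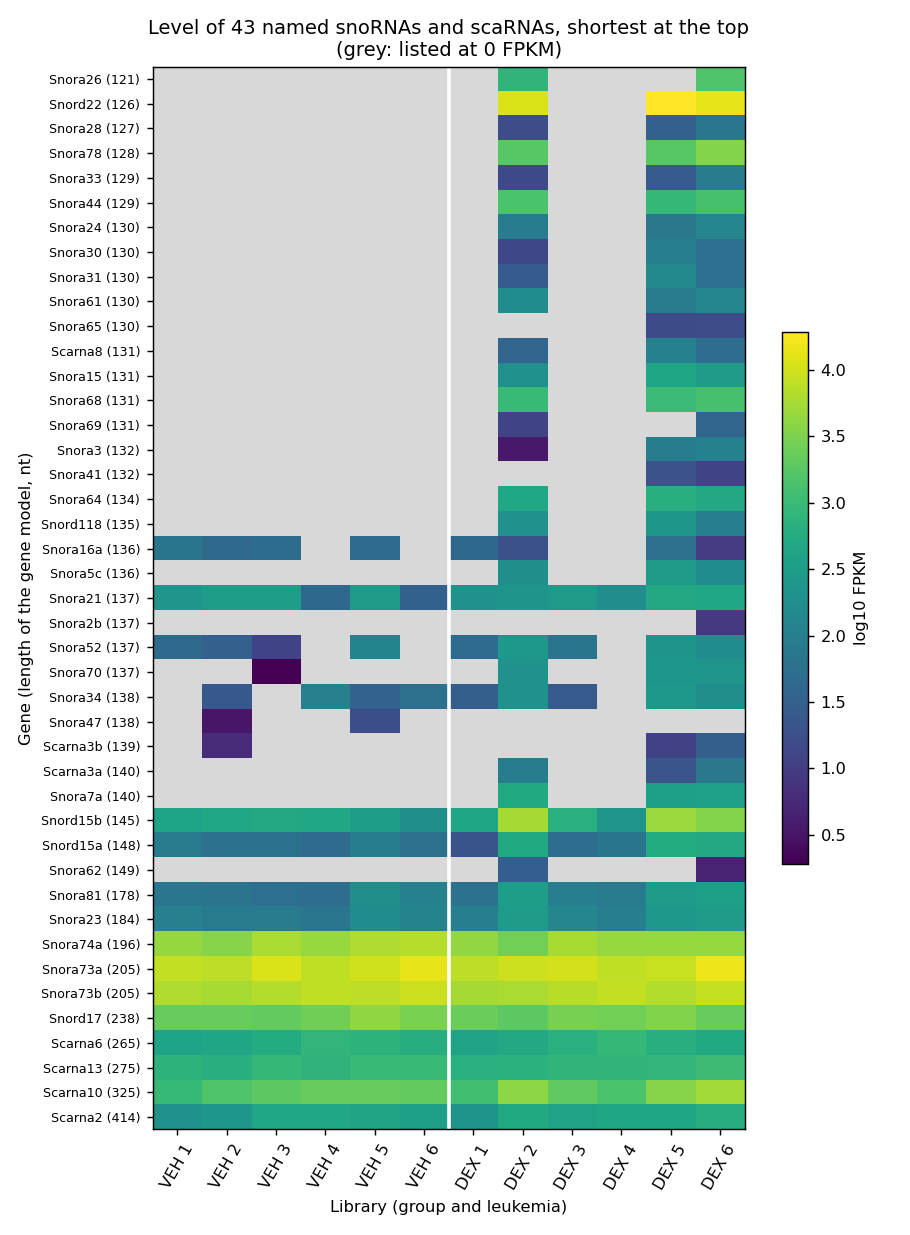
Levels of the 43 members above 0 in at least 1 of 12 libraries, on a log10 FPKM colour scale, ordered by the length of the gene model (nt, in brackets) from top to bottom, with VEH libraries on the left and DEX libraries on the right; grey cells are listed at 0. The 19 members of 121 to 135 nt are coloured only in the DEX libraries of leukemias 2, 5 and 6, and the 10 members of at least 150 nt in every library.

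The members of middle length show where the libraries part. Of the 24 members of 121 to 135 nt, 19 were above 0 in at least 1 of the 3 DEX libraries, 15 of them in all 3, and 0 in any of the other 9. All 14 members of 136 to 149 nt were above 0 somewhere, 9 of them in at least 1 of the other 9 libraries. In all, 24 members were above 0 only in the 3 DEX libraries, 18 of them in all 3, and 20 of the 24 were Snora. Snora47, of 138 nt, was the only member above 0 in other libraries but in none of the 3. It was listed at 3.33 and 17.34 FPKM with VEH in leukemias 2 and 5.

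In the 9 libraries the same lower limit held for small RNAs outside the named members. Among 3698 other gene models annotated as snoRNA, scaRNA, snRNA, rRNA or misc_RNA, with Snora17 and Snora43 again left out, none under 136 nt was above 0 in any of the 9 libraries. In the DEX libraries of leukemias 2, 5 and 6, 97, 39 and 89 such models were above 0. The shortest of them had 117, 124 and 119 nt, less than the shortest members there (121, 126 and 121 nt). These 3 libraries also differed among themselves: 20.8%, 0.0% and 18.1% of the models of 115 to 119 nt were above 0. Between 136 and 149 nt, on average 18.52% of these models were above 0 in the 3 libraries and 11.86% in the 9. At 150 nt or more the shares were 22.4% and 23.68%. Levels above 0 under 136 nt in these 3 libraries only were therefore seen in other small RNAs too.

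**Figure D2:**
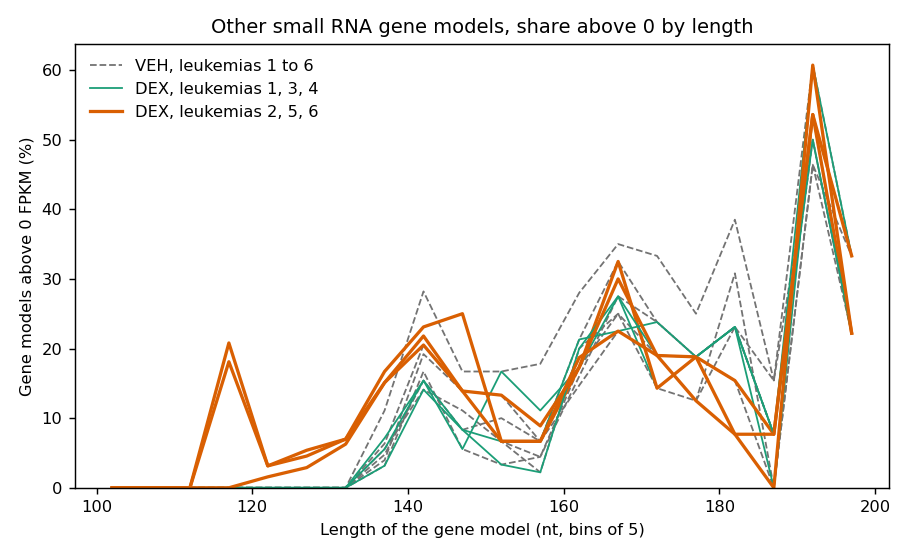
Share of small RNA gene models other than the named members that were above 0 FPKM (vertical axis, percent) by length in bins of 5 nt (horizontal axis), 1 line per library. The lines of the DEX libraries of leukemias 2, 5 and 6 leave 0 below 136 nt, and the other 9 lines stay at 0 there.

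The members' part of the whole table moved with this. Their summed FPKM was 1.54% to 2.23% of the library's total FPKM in the 9 libraries and 2.70%, 3.44% and 3.33% in the DEX libraries of leukemias 2, 5 and 6. The 10 members of at least 150 nt made up 1.38% to 2.21% in all 12 libraries, with no gap between the 3 and the 9.

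Members with a role in cleavage of the rRNA precursor spanned the range from the most abundant to unlisted. Snora73a and Snora73b, copies of the U17 family needed for release of the small-subunit rRNA, were the highest members in VEH libraries, at 9758 ± 2330 and 7264 ± 1247 FPKM (SD, n = 6). Snora73a stood at 8218.59, 7622.75, 11560.10, 7891.06, 9823.13 and 13430.42 FPKM with VEH in leukemias 1 to 6, and at 7581.26, 9576.57, 10484.08, 7994.16, 8947.07 and 15133.37 FPKM with DEX. VEH and DEX values overlapped throughout, and leukemia 6 was the highest in both groups. Snora73b stood between 5727.66 and 9167.04 FPKM (median 7129) in VEH and between 5602.67 and 8407.54 FPKM (median 6950) in DEX libraries.

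Snord22, the U22 RNA that also acts in small-subunit maturation, was listed at 0 in 9 libraries and at 11174.13, 19147.88 and 13803.12 FPKM in the DEX libraries of leukemias 2, 5 and 6. Those were the highest Snord levels in the table. With 126 nt, it is under the length at which any of these small RNA models was above 0 in the other 9 libraries, so no fold is given. Snord118, the U8 RNA of large-subunit maturation with 135 nt, was listed at 0 in the same 9 libraries and at 199.86, 253.12 and 100.07 FPKM in the 3. Snord13 and Snord14a, Snord14c, Snord14d and Snord14e, which have 86 to 104 nt and belong to families that act on the small-subunit rRNA, were listed at 0 in all 12.

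Among the H/ACA box guides of the large-subunit rRNA, Snora74a was the highest. It stood at 4537.39, 3604.65, 5920.20, 4678.39, 6348.38 and 6928.19 FPKM with VEH in leukemias 1 to 6, and at 4347.04, 2745.00, 5645.26, 4668.45, 4590.64 and 4695.05 FPKM with DEX. The DEX value was the lower one in 6 of 6 pairs, by very little in leukemias 1, 3 and 4. Snora23 (104.5 ± 33.2 FPKM in VEH, SD, n = 6) and Snora81 (89.4 ± 49.98) were far below it. The shorter members Snora16a, Snora21, Snora34 and Snora52 (136 to 138 nt), passed the filter although 3 of them were at 0 in some VEH and DEX libraries. Snora16a reached 1 FPKM in 8 libraries and Snora34 and Snora52 in 9 each, while Snora70, just outside the filter, did so in 4.

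The 4 scaRNAs of at least 150 nt were above 0 in every library. In VEH libraries Scarna10, which guides both kinds of mark, averaged 1817 ± 516 FPKM, Scarna13 827 ± 148.7, Scarna6 588 ± 164 and Scarna2 360 ± 113 FPKM (SD, n = 6). Among the C/D box guides, Snord17 (238 nt) averaged 2750 ± 780 FPKM, Snord15b (145 nt) 392.2 FPKM, with a range of 188.30 to 494.45, and Snord15a (148 nt) 69.1 ± 18.3 FPKM.

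The order of the 10 members of at least 150 nt by VEH mean was Snora73a, Snora73b, Snora74a, Snord17, Scarna10, Scarna13, Scarna6, Scarna2, Snora23 and Snora81. Each stood above the next one in 5 or 6 of 6 VEH libraries, yet their ranges over the VEH libraries overlapped for 8 of the 9 neighbouring pairs. The exception was Scarna2 over Snora23, a 3.45-fold gap in VEH means. Over all 12 libraries Snora23 was above Snora81 in 8, and Snord17 was above Scarna10 in 9, so those neighbours were not separated.

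Between DEX and VEH, 2 of the 16 tested members rose and 0 fell. Among all 12358 genes tested, 4.27% rose and 9.28% fell, 13.6% in either direction (limma with leukemia as a block on log2(FPKM + 1), two-sided, adjusted over all genes, threshold 0.05). The 2 were Snora81 and Snora23, H/ACA guides of large-subunit rRNA. Fold changes on the log2(FPKM + 1) scale understate changes of low genes. In bulk RNA, fewer cells that hold an RNA and less of it per cell cannot be told apart.

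Snora81 stood at 72.50, 65.44, 55.01, 52.16, 182.65 and 108.56 FPKM with VEH in leukemias 1 to 6. The DEX values were 58.88, 335.67, 101.96, 85.28, 313.99 and 353.10 FPKM. The 3 DEX libraries of leukemias 2, 5 and 6 were above all other 9 libraries, the other DEX values were within the VEH range, and DEX was higher in 5 of 6 pairs. The difference was 1.02 ± 0.28 log2 units (SE, adjusted p = 0.0446). In leukemias 1, 3 and 4 alone it was 0.43 (adjusted p = 0.294), and in 2, 5 and 6 alone 1.60 (adjusted p = 0.0198).

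Snora23 followed the same course. It stood at 104.17, 85.53, 86.22, 70.49, 163.56 and 117.21 FPKM in VEH and at 103.08, 298.47, 134.76, 98.07, 262.07 and 307.20 FPKM in DEX libraries. DEX was higher in 5 of 6 pairs and level in leukemia 1, and again the 3 DEX libraries were above the other 9. The difference was 0.82 ± 0.20 log2 units (adjusted p = 0.0313), with 0.36 in leukemias 1, 3 and 4 (adjusted p = 0.155) and 1.28 in 2, 5 and 6 (adjusted p = 0.0170). Both calls were lost when any 1 of leukemias 2 to 6 was left out (adjusted p of 0.0732 to 0.101 for Snora81 and 0.0519 to 0.0756 for Snora23), and both kept their direction.

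Among tested members of 140 nt or more, the largest differences were those of Snord15b and Snord15a, guides of large-subunit rRNA. They did not pass the test over 6 leukemias. Nor did the shorter members, of which Snora52 had the largest difference of all 16 (2.29 ± 0.85 log2 units, limma, adjusted p = 0.109). Snora34 differed by 1.78 ± 1.33 (adjusted p = 0.400), Snora21 by 0.96 ± 0.51 (adjusted p = 0.240) and Snora16a by −0.66 ± 0.90 (adjusted p = 0.655). Snord15b stood at 397.87, 460.58, 494.45, 477.34, 334.38 and 188.30 FPKM in VEH and at 429.67, 5613.53, 674.19, 237.02, 4846.73 and 3511.75 FPKM in DEX libraries. In leukemias 2, 5 and 6 the DEX level was 14.2 times the VEH level on average (4657 ± 1064 against 328 ± 136 FPKM, SD, n = 3), while in leukemias 1, 3 and 4 the DEX values lay on both sides of VEH. The fit over 6 leukemias gave 1.87 ± 0.69 log2 units (adjusted p = 0.108). In leukemias 2, 5 and 6 alone it gave 3.89 ± 0.14, and in 1, 3 and 4 alone −0.15 ± 0.26 (adjusted p = 0.780).

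Snord15a, which sits in the same host gene and is of nearly the same length, stood lower in all libraries and had its high values in the same 3. VEH values were 88.07, 62.66, 62.53, 48.46, 94.98 and 57.78 FPKM, and DEX values 21.06, 519.42, 53.05, 68.71, 561.21 and 502.59 FPKM. The 3 DEX libraries lay within 503 to 561 FPKM, above all the others. The difference was 2.89 ± 0.13 in leukemias 2, 5 and 6 and −0.58 ± 0.42 in 1, 3 and 4 (adjusted p = 0.457).

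**Figure D3:**
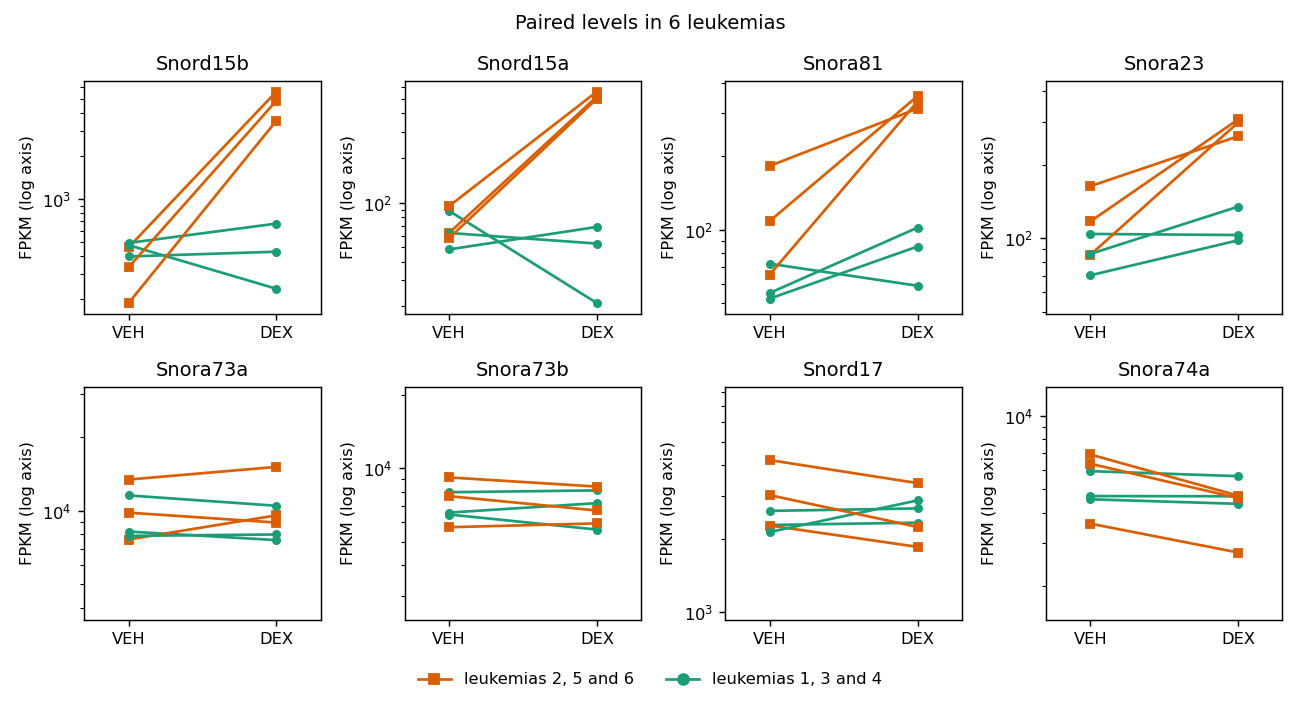
FPKM (vertical axes, log scale) of 8 members in the VEH and DEX library of each of 6 leukemias, joined by a line per leukemia; orange squares are leukemias 2, 5 and 6 and green circles are 1, 3 and 4. Snord15b, Snord15a, Snora81 and Snora23 (top) have their 3 highest values in the DEX libraries of leukemias 2, 5 and 6, and Snora73a, Snora73b, Snord17 and Snora74a (bottom) do not.

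With leukemias 2, 5 and 6 alone, 6 members rose and 0 fell, where 1.52% of all genes rose and 2.08% fell. They were Snord15b, Snord15a, Snora34 (2.56), Snora81, Snora23 and Scarna10 (1.13 log2 units, adjusted p = 0.0188). With leukemias 1, 3 and 4 alone, 0 members rose or fell, where 3.14% of all genes rose and 4.23% fell (limma, 3 pairs in each case). A test of the difference itself, the treatment effect in leukemias 2, 5 and 6 against that in 1, 3 and 4, passed for 1 of 16 members, Snord15b (4.04 ± 0.34 log2 units, adjusted p = 0.00452). It passed for 0.0486% of all genes, 6 in number. Of the other 5, Gm22486 (137 nt), Gm24265 and Gm24407 (both 141 nt) are also short RNA models, Gm24105 is a misc_RNA model of 293 nt, and Hist1h2an is a histone gene. Snord15a missed the threshold in that test (3.48 ± 0.53, adjusted p = 0.147).

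Scarna10 is the longest member (325 nt) for which the 3 DEX libraries were above the other 9. Its DEX values there were 4017.17, 3582.58 and 5251.88 FPKM, and the other libraries stood between 918.78 and 2265.89 FPKM. Over 6 leukemias its difference was 0.54 ± 0.24 (adjusted p = 0.175), and its difference between the sets was 1.18 ± 0.29 (adjusted p = 0.329). The same separation of 3 from 9 libraries held for Snora34, Snora52, Snora81, Snora23, Snord15a and Snord15b, 7 of 16 members in all, and for 0.955% of all genes. The 3 DEX libraries were below the other 9 for 0 of 16 members and for 2.23% of all genes. Members that separated and members that did not overlapped in length. Scarna10 (325 nt) and Snora81 (178 nt) separated, and Snora73a, Snora74a, Snord17, Scarna13 and Scarna6 (196 to 275 nt) did not. The reason was not tested.

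**Figure D4:**
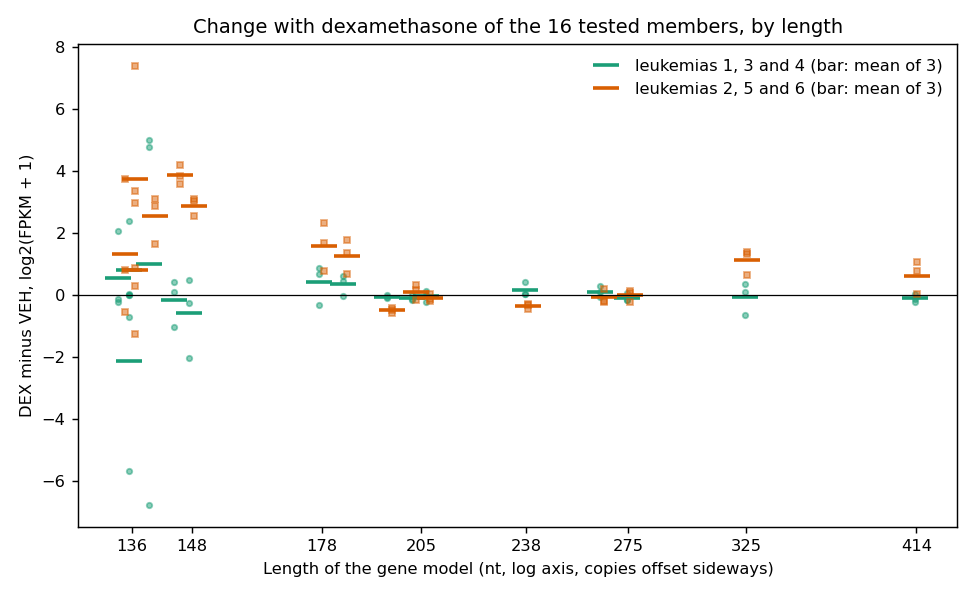
DEX minus VEH difference in log2(FPKM + 1) (vertical axis) of the 16 tested members against the length of the gene model (horizontal axis, nt, log scale), 1 point per leukemia and a bar for the mean of 3; orange squares are leukemias 2, 5 and 6 and green circles 1, 3 and 4. Below 150 nt the orange bars lie above 0 and single points reach from −6.76 to 7.40, and from 196 to 275 nt all points lie between −0.56 and 0.43.

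The abundant long members showed the narrowest differences. Snora73a differed by 0.02 (95% interval −0.22 to 0.26), Snora73b by −0.05 (−0.26 to 0.15), Snord17 by −0.09 (−0.36 to 0.18), Scarna6 by 0.03 (−0.16 to 0.22) and Scarna13 by −0.04 (−0.20 to 0.13) log2 units. Snora74a differed by −0.26 ± 0.10 log2 units and did not pass the test (adjusted p = 0.135). It was the 1 member of 16 that moved in 1 direction in all 6 pairs, as 19.6% of all genes did. Scarna2 differed by 0.27 ± 0.17 (adjusted p = 0.308). Snord17 was lower with DEX in each of leukemias 2, 5 and 6 (by 0.29, 0.31 and 0.43) and not in 1, 3 and 4 (0.03, 0.43 and 0.03), and this difference between the sets did not pass the test (−0.51 ± 0.16, adjusted p = 0.363).

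The 2 box classes were compared by their medians, beside a median of −0.05 over all 12358 genes. The 9 tested H/ACA box members had a median difference of 0.82 log2 units, the 3 C/D box members 1.16 and the 4 scaRNAs 0.15. In leukemias 1, 3 and 4 alone these were 0.36, −0.15 and −0.06, and in leukemias 2, 5 and 6 they were 1.28, 2.89 and 0.32. Split by length instead, the 6 members under 150 nt had a median of 1.47 (0.21 and 2.73 in the 2 sets), and the 10 of at least 150 nt had 0.03 (−0.03 and 0.06). Within the longer group the 5 H/ACA box members had a median of 0.02. The C/D class has only Snord17 at that length, so a comparison of the classes at matched length rests on 1 C/D member, at −0.09. Taken in each leukemia, the class median had an SD over the 6 leukemias of 0.659 for H/ACA and 1.51 for C/D box members. The C/D median was the higher one in 6 of 6 leukemias, by little in leukemia 4 (0.03 and 0.02). In leukemias 1, 3 and 4 that median was the value of Snord17 alone (0.03, 0.43 and 0.03). Taken from the members' mean differences in those leukemias, the C/D median was the lower one (−0.15 against 0.36). The count of 6 is therefore no sign of a steady class difference, and the 2 classes were not tested against each other. The other 38 tested snoRNA and scaRNA models, which have no name of this kind, had a median of 0.26. Of these, 6 were higher and 0 lower, beside 4.27% and 9.28% of all genes.

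Between leukemias, with treatment in the fit, 8 of 16 members differed, and 51.1% of all genes did (limma F test, adjusted over all genes). They were Snora16a, Snora52, Snora81, Snora23 (barely, adjusted p = 0.04995), Snora74a, Snora73a, Scarna6 and Scarna13. For Snora52, Snora81 and Snora23 the DEX libraries of leukemias 2, 5 and 6 were above the other 9. Their leukemia means include those libraries, so differences between leukemias and what set these libraries apart cannot be told apart there. Within leukemias 1, 3 and 4 alone, 6 of 16 members and 40.7% of all genes differed between leukemias, and within 2, 5 and 6 alone 6 members and 32.1% of all genes. Scarna6, a guide for a spliceosomal RNA, was lowest in leukemia 1 (407.83 FPKM with VEH and 393.30 with DEX) and highest in leukemia 4 (815.16 and 883.60), and leukemia 2 was the second lowest under both treatments, while leukemia 3 was below leukemias 5 and 6 with VEH (545.02) and above them with DEX (666.08). Its leukemia means spanned 1.08 log2 units (adjusted p = 0.00280). Snora52 spanned 7.38 log2 units, because it was listed at 0 in both libraries of leukemia 4, where other leukemias had up to 260.50 FPKM.

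In 6 of 13 pairs a member and the gene around it had a difference of the same sign. For 13 tested members a same-strand gene around them was also tested, 11 distinct hosts, of which 4 fell with DEX and 0 rose, beside the 9.28% of all genes that fell. The falls were in Ipo7 (−0.54 ± 0.10 log2 units, adjusted p = 0.0129), the nuclear import receptor gene that holds Snora23, in Snx5 around Snord17 (−0.45), in Kansl2 around Snora34 (−0.37) and in Snhg12 around Snora16a (−0.36). Ipo7 fell in 6 of 6 leukemias, from 74.3 ± 17.4 to 50.7 ± 10.5 FPKM (SD, n = 6) (−0.35 in leukemias 1, 3 and 4 and −0.73 in 2, 5 and 6), while Snora23 in its intron was higher with DEX in 5. Rps3, the ribosomal protein gene around both Snord15 genes, stood at 686 ± 92.0 FPKM in VEH and 674 ± 114 in DEX, with a difference of 0.03 in leukemias 2, 5 and 6, where Snord15b differed by 3.89.

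The member's change minus that of its host was tested over the 6 pairs with an exact two-sided sign-flip test, whose smallest p is 0.03125. Snora23 against Ipo7 (1.36 log2 units, 6 of 6 pairs) and Snora52 against Rplp2 (2.20, 6 of 6 pairs) reached that raw p in the exact test. Adjusted over 13 pairs the exact test gave 0.203 for both, so 0 pairs passed. A pass would have needed most of the 13 pairs at the smallest p, so the lack of passes says little. For the Snora73 pair the differences to Snhg3 were 0.07 and 0.00. Of 112 members with a containing gene in the table, 56 overlapped one of its exons, and how reads in such overlaps were shared out is not given in the sources used here. Snora81 and Eif4a2, Snora52 and Rplp2, Snord15b and Rps3, and Scarna10 and Ncapd2 are such cases, and Snora23 and Snord15a are not.

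Genes of several proteins that bind these RNAs fell with DEX, where 9.28% of all genes fell. Among the core proteins of the C/D box particle, 2 of 4 fell and 0 rose: Nop56, from 203 ± 35.9 to 142.6 ± 28.4 FPKM (SD, n = 6), a difference of −0.51 ± 0.09 log2 units (adjusted p = 0.00797), and Nop58 (−0.46 ± 0.09, adjusted p = 0.0128). Snu13, which binds the box itself, differed by −0.26 (adjusted p = 0.0540) and the methyltransferase Fbl by −0.12 (adjusted p = 0.476). Among the core proteins of the H/ACA box particle 3 of 4 fell: the pseudouridine synthase Dkc1, from 79.9 ± 11.95 to 52.6 ± 9.14 FPKM (−0.60 ± 0.07, adjusted p = 0.00247), Gar1 (−0.47) and Nhp2 (−0.39). Nop10 differed by −0.22 (adjusted p = 0.117). All 5 that fell did so in 6 of 6 leukemias, and the list medians were −0.36 and −0.43 beside −0.05 for all genes.

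**Figure D5:**
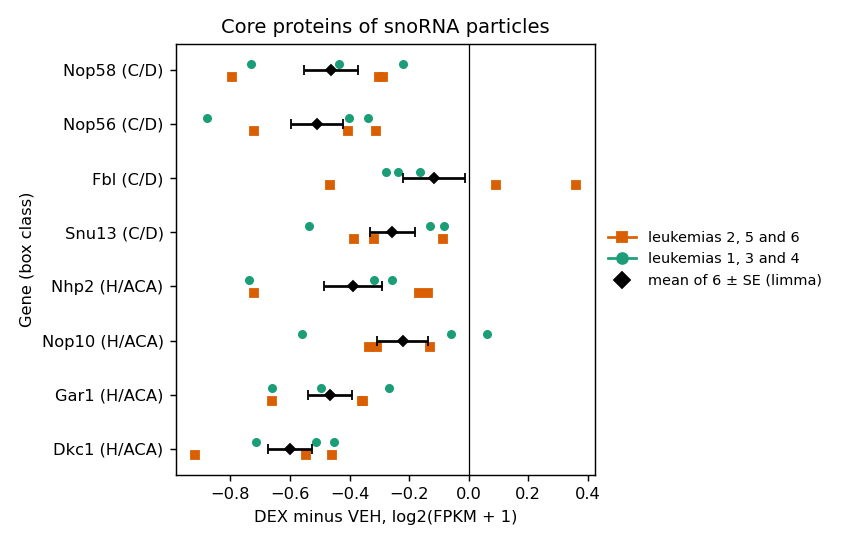
DEX minus VEH difference in log2(FPKM + 1) (horizontal axis) of the 8 core protein genes of C/D and H/ACA box particles, 1 coloured point per leukemia (orange squares 2, 5 and 6, green circles 1, 3 and 4) and a black diamond for the mean of 6 with its limma SE. The points of Nop58, Nop56, Snu13, Nhp2, Gar1 and Dkc1 all lie below 0, and those of Fbl and Nop10 lie on both sides.

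These falls had similar list medians in the 2 sets of leukemias. The C/D core list had a median of −0.36 in leukemias 1, 3 and 4 and also in 2, 5 and 6, and the H/ACA list −0.46 and −0.40. The test of the difference between sets passed for 0 of 8 genes and for 0.0486% of all genes, so its count says little here. Dkc1 differed by −0.71, −0.55, −0.45, −0.51, −0.92 and −0.46 in leukemias 1 to 6.

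Among 17 factors of particle assembly and trafficking, 5 fell and 0 rose, beside 9.28% and 4.27% of all genes. In leukemias 1, 3 and 4 alone 4 fell, beside 4.23% of all genes. In leukemias 2, 5 and 6 alone 1 fell, beside 2.08% of all genes. The 5 were Naf1 (−0.65 ± 0.11 log2 units, adjusted p = 0.00766) and Shq1 (−0.38), which bring Dkc1 into new H/ACA particles, Nolc1 (−0.51), a nucleolar and Cajal body chaperone, and the helicases Ruvbl1 (−0.39) and Ruvbl2 (−0.33). Coil, the scaffold of the Cajal body, differed by −0.08 (adjusted p = 0.541) and Wrap53, which brings scaRNAs there, by 0.13 (adjusted p = 0.298). Among 19 tested trimming and decay factors, 1 rose and 2 fell, shares near the 4.27% and 9.28% of all genes. The rise was in C1d (0.43 ± 0.09, adjusted p = 0.0153, 6 of 6 leukemias), a partner of the nuclear exosome, and the falls in the exosome subunits Exosc7 (−0.38) and Dis3 (−0.31). The list medians were −0.18 and −0.13. The test of the difference between sets passed for 0 genes of either list, beside 0.0486% of all genes.

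Cell composition and scale were read from gene lists and column sums. The labelled T lineage was present in every library, with a summed level of 11 T-cell markers of 2790 to 4862 FPKM in VEH and 2498 to 4616 FPKM in DEX. Of these 11, 4 fell (Cd5 by 0.82, Cd3g by 0.33, Cd2 by 0.33 and Lck by 0.29 log2 units) and 0 rose, where 9.28% of all genes fell and 4.27% rose. The sum of 12 granulocyte and monocyte markers was 2282 to 9090 FPKM in VEH (median 3690) and 1483 to 5308 FPKM in DEX (median 2331), and 1483 to 2447 FPKM in the DEX libraries of leukemias 2, 5 and 6. Of these 12, 2 fell and 0 rose, beside 9.28% and 4.27% of all genes. Their median difference was −1.11 log2 units in leukemias 2, 5 and 6 and −0.09 in 1, 3 and 4. The test of the difference between sets passed for 0 of the 12 and for 0.0486% of all genes. Leukemias within a set were not alike: S100a8 differed by −0.74, −1.47, 0.61, −0.12, −0.55 and −1.37 in leukemias 1 to 6. Erythroid markers summed to 10.1 to 1209 FPKM in VEH and 16.9 to 152.6 in DEX, and 8 B-lineage markers to at most 51.6 FPKM, with Igll1 and Vpreb1 under 1 in all libraries. The part of these cells in the members' differences was not tested. Tsc22d3, a direct target of the glucocorticoid receptor, was higher with DEX in 6 of 6 pairs (26.4 to 72.7 FPKM in VEH, 61.6 to 220.5 in DEX). Total FPKM was 1466471 to 1746848 in the 9 libraries and 1799765 to 2019058 in the 3 DEX libraries, and rescaling to a fixed total lowered the median difference of all genes by 0.11 log2 units. Snora81 and Snora23 passed under that scaling too, and the differences of Snora73a and Scarna6 changed sign within their intervals.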

How the data were processed

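Gene levels were used as FPKM on a linear scale with 2 decimals, as deposited by the authors for 12 libraries. Per the submitters' processing notes, mm10, Bowtie2 (version 2), RSEM and edgeR were used; their roles, the annotation and any filter on length or level are not given in the sources used here. The file holds no counts, so depth per library is unknown and no counting interval is given. Samples were grouped by the treatment label and paired by the leukemia code in their titles. As a check, deviations from the group mean over genes correlated at 0.551 to 0.817 between the libraries of a leukemia and at 0.205 or less between leukemias.

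Values were analysed as log2(FPKM + 1) in limma 3.58.1 (R 4.3.3, eBayes with trend, leukemia as block, two-sided, 5 residual and 3.995 prior degrees of freedom) on 12358 genes, with Benjamini-Hochberg adjustment over all of them. Errors of differences are moderated SE. The fit with leukemias 2, 5 and 6 set against 1, 3 and 4 by an added term, and the medians by length, were added after seeing the data. Lengths, hosts and sequences came from GENCODE release 21, which matched all 124 members; a host is the shortest same-strand gene in the table that contains the member. On simulated data of 12358 genes the fit recovered 91% of changes of 1 log2 unit and 98% of 2, with 12 false among 201 calls. The changed genes were drawn from all genes, and the noise was normal with no libraries set apart. These shares therefore do not hold for the tested members under 150 nt, whose SE were 0.51 to 1.33 log2 units.

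Named were members past the threshold, the 8 with the highest mean, up to 4 with the smallest p per class, the 6 with the widest leukemia range, members with a role in rRNA cleavage, hosts, and list genes past the threshold. Other members, and list genes that missed the threshold, were picked with their values known. The members, lists and tests were chosen with earlier results of these data known. Alternatives were pseudocounts, filters, scalings, no pairing, no trend, subsets of leukemias and leaving out each leukemia. VEH and DEX are single recipients per leukemia. The p-values of DEX against VEH measure the spread over leukemias of the paired difference, which includes that between recipients. Those of the F test between leukemias rest on the spread within a leukemia after the treatment term.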

Additional observations from a re-analysis of the deposited data

Results flagged for a closer look

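Snord15b was the member for which the effect of DEX differed between sets of leukemias by a test of that difference. It was 4.04 ± 0.34 log2 units larger in leukemias 2, 5 and 6 than in 1, 3 and 4 (limma, adjusted p = 0.00452), with DEX above VEH in 3 of 3 leukemias of the first set and in 2 of 3 of the second. The 3 DEX libraries involved are those whose descriptions lack an S number and in which shorter gene models were above 0, so the effect of DEX and what sets these libraries apart cannot be told apart.

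The VEH and DEX values of the 16 tested members, 32 groups of 6 values, were also searched with Dixon's rule for a single library far from the rest of its group, on the FPKM and the log2(FPKM + 1) scale. No library passed on the FPKM scale. On the log2 scale the DEX library of leukemia 2 was far below the others for Snora74a, at 11.42 with a gap of 0.638 of the range, and that of leukemia 4 for Snora52, at 0.0 because it was listed at 0 FPKM, with a gap of 0.702 of the range. Chance alone passes this rule in about 1 group in 20, and it cannot find 3 of 6 libraries that stand apart together.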

How the results depend on the processing

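The calls among members depended on the settings. With 2 members higher in the reported fit, the count was 0 with no filter, 1 with quantile normalization, 1 without trend, 0 in leukemias 1, 3 and 4, 6 in leukemias 2, 5 and 6, and 0 to 2 without each leukemia; 0 fell in any. Without the pairing by leukemia (no replicate block) 0 members passed, with 35 genes higher and 46 lower, and the set difference passed for 0 members (Snord15b adjusted p = 0.0574). Snora81 lost its call in 10 of 18 alternatives and Snora23 in 8, with 0.75 to 1.28 and 0.63 to 0.99 log2 units without each leukemia. Members differing between leukemias numbered 2 with no filter and 5 to 10 without each leukemia. The set difference passed for 17 members with no filter, which adds genes at 0 in most libraries, and for 1 to 2 without each leukemia. The H/ACA median was 2.55 with no filter and the C/D median 2.89 in leukemias 2, 5 and 6. All genes higher and lower numbered 181 and 370 with no filter, 268 and 1844 at a fixed total, 683 and 718 with median-of-ratios scaling, 388 and 523 in leukemias 1, 3 and 4, 188 and 257 in 2, 5 and 6, and 233 to 532 and 425 to 1042 without each leukemia. Signs changed, none of them past the threshold, in leukemias 1, 3 and 4 for Scarna10 (−0.053), Scarna2 (−0.090), Snora73a (−0.080), Snord15a (−0.58), Snord15b (−0.15) and Snord17 (0.17), and in 2, 5 and 6 for Scarna6 (−0.058) and Snora16a (0.81). They also changed at a fixed total for Scarna6 (−0.11) and Snora73a (−0.12), with quantile normalization for both (−0.10 and −0.27), and with median-of-ratios scaling for Scarna13 (0.026) and Snora73b (0.0096). Without 1 leukemia, Scarna13 went from −0.070 to 0.0019, Scarna6 from −0.022 to 0.077, Snora16a from −1.46 to 0.35 and Snora73a from −0.040 to 0.054. The 8 core protein genes of both particles stayed below 0 in each of the 18 alternatives, and 0 of them passed without the pairing. The cause of these changes was not tested. Differences of members under 150 nt had wider SE than those of longer members, and 0 may not mean absence.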
